A study of Mus musculus with 18 samples.

Results

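The spleen is held together by a collagen capsule, trabeculae and a mesh of reticular fibres, and 42 genes of this framework were followed across 6 groups of mice. They were taken from the deposited table of 19320 genes by symbol, and all 42 were present. They comprise 5 fibrillar collagen genes, 11 basement membrane genes, 4 genes of collagen VI and XIV, 6 genes of matrix glycoproteins and the elastic fibre, 5 small leucine-rich proteoglycan genes, 6 genes of matrix turnover and crosslinking, and 5 contractile genes of smooth muscle.

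Fibrillar collagens are built as triple helices, trimmed outside the cell and assembled into fibres, and collagen III is a main collagen of the reticular fibres on which lymphocytes and macrophages of the spleen rest. Collagen V sits inside collagen I fibrils and limits their diameter, while small proteoglycans such as decorin and biglycan coat the fibril surface. Basement membranes of collagen IV, laminins, nidogens and perlecan underlie vessels and sinuses. The capsule and trabeculae hold smooth muscle that contracts with alpha-actin and smooth muscle myosin. Fibroblastic reticular cells, pericytes and smooth muscle cells make most of these products.

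RNA was taken from the spleens of male ICR mice, an outbred stock, at 10 weeks of age, with 3 libraries in each group and 18 in all. Con mice were controls that received saline on a regular diet, and A10 mice were given AOS (alginate oligosaccharide, fragments of a seaweed polysaccharide) at 10 mg/kg. STZ mice received a single injection of streptozotocin, which kills the insulin-making beta cells and so models type 1 diabetes, and STZ-A10 mice received streptozotocin and AOS at 10 mg/kg. A10-FMT mice received streptozotocin and a microbiota transplant from donors given AOS at 10 mg/kg, and Con-FMT mice received streptozotocin and a transplant from control donors, so that all groups but Con and A10 carry streptozotocin. The transplanted material was small intestinal content pooled over the donors of a group, so the libraries of a transplant group share their inoculum. How AOS was given to the A10 and STZ-A10 mice is not given in the sources used here.

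Levels are given as RPKM, read numbers divided by gene length and by the library's mapped reads, and differences as log2 fold changes on the log2(RPKM + 1) scale, which understates changes of low genes. The number of reads behind a value is unknown. Lymphocyte, macrophage and globin transcripts and the spleen mesenchyme factors Tlx1 and Nkx2-5 were present in all 18 libraries. A10-FMT replicate 3 stood apart. Its summed level of 12 markers of reticular cells and fibroblasts was 226.5 RPKM, against at least 519.87 in the other libraries. Its summed level of 10 lymphocyte markers was 560.54 RPKM, against at least 1367.27 elsewhere. Globin genes made up 42.7% of its summed RPKM, which was close to the 39.5% in A10-FMT replicate 1. It held the lowest value of all 18 libraries for 28 of the 42 genes, and the results of both A10-FMT comparisons are given with and without it. In RNA from a whole organ, fewer cells of a type and less RNA per cell cannot be told apart.

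The mean levels of the 42 genes spanned 374-fold. The fibril-coating proteoglycan Bgn was the highest at 223 ± 43.9 RPKM (SD over 18 libraries), followed by Sparc, a collagen-binding glycoprotein, at 128 ± 20.4 and the actin-binding smooth muscle protein Tagln at 78.4 ± 16.8. The lowest were the glycoprotein Tnc (tenascin C) at 0.597 ± 0.305 RPKM and the basement membrane collagen Col15a1 at 0.677 ± 0.378. Neighbours in the order of mean levels were mostly close, with 36 of 41 neighbouring pairs closer than 1 SD over the 18 libraries. Within libraries the order of such pairs held to differing degrees. Lamb1 was above Col15a1 in 17 of 18 libraries, and Col4a1 was above Fn1 in 9 of 18. In all, 17 genes had a mean of at least 10 RPKM and 6 a mean under 2. The other class leaders were Col1a2, a chain of collagen I, at 32.2 RPKM, Col4a1, a chain of collagen IV, at 20.9, Col14a1, a fibril-associated collagen, at 17.4, and Timp2, an inhibitor of matrix metalloproteinases, at 53.4. All 42 genes passed the filter of an RPKM of at least 1 in 3 libraries, and 36 reached that level in every library. Tnc passed it in only 3 libraries, which were replicate 2 of Con, A10 and Con-FMT. Col15a1 passed it in 4 libraries of Con, A10 and Con-FMT. Col15a1, Tnc, Lum and Lamb1, a laminin chain, reached it in no STZ library. These 4 thus entered the STZ comparisons through other groups and lend the counts there no support. Col15a1, Tnc and Lamb1 also reached it in no A10-FMT library and lend the A10-FMT counts no support either.

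**Figure D1:**
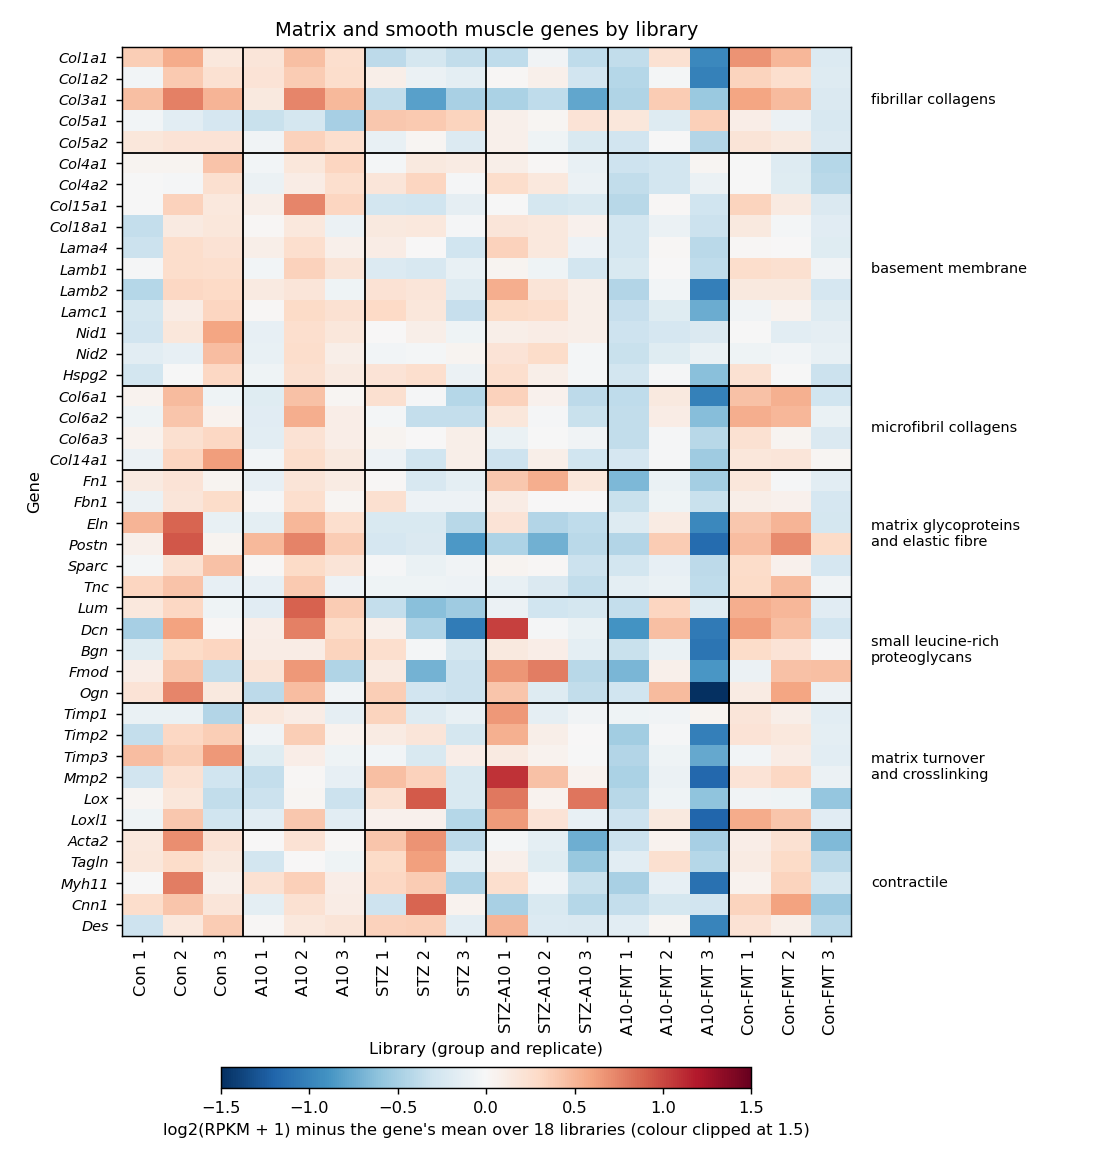
Level of each gene (row, grouped by class) in each library (column, grouped by treatment), as log2(RPKM + 1) minus the gene's mean over the 18 libraries; red is above and blue below that mean. Col3a1 is blue in the STZ and STZ-A10 libraries, Col5a1 is red in the STZ libraries, and A10-FMT replicate 3 is the lowest library for 28 of the 42 genes.

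The first question was what streptozotocin diabetes does to the framework of the spleen, read as STZ against Con. None of the 42 genes passed the adjusted threshold of 0.05 in limma, where 0.163% of the 12905 genes tested did. At an unadjusted p under 0.05 there were 9 of the 42, where 11.1% of all genes were. Of these 8 were lower in STZ, where 6.44% of all genes were, and 1 was higher, where 4.63% were. Libraries without overlap were lower in STZ for 10 genes, where 7.07% of all genes were, and higher for 1, where 5.77% were. The 10 include Col15a1, Lum and Lamb1, which reached the filter level in no STZ library and lend that count no support. The median log2 fold change of the 42 genes was -0.16, against -0.01 over all genes tested. The same comparison in animals given AOS, STZ-A10 against A10, uses none of the libraries of the first. There too none of the 42 genes passed the threshold, where 0.0542% of all genes did. At an unadjusted p under 0.05 there were 8 of the 42, where 10.2% of all genes were, 5 lower (6.42% of all genes) and 3 higher (3.79% of all genes). Libraries without overlap were lower for 7 genes, where 14.9% of all genes were, and higher for 3, where 7.69% were. The 7 include Col15a1, which reached the filter level in no STZ-A10 library. The median was -0.09, against -0.03 over all genes, and it was 0.00465 without A10 replicate 2 and 0.0162 without STZ-A10 replicate 3.

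Across the 42 genes the log2 fold changes of STZ over Con and of STZ-A10 over A10 had a Pearson r of 0.774, with the same sign for 31 of 42. Over all 12905 genes r was 0.684, with the same sign for 8709. Genes are not independent replicates, and these values are descriptions. Libraries that did not overlap in either comparison, and were lower with STZ in both, were seen for Col3a1, Col1a1, Col15a1 and Postn, 4 of the 42 genes, where 2.93% of all genes showed this. Of these Col15a1 reached the filter level of 1 RPKM in no STZ or STZ-A10 library. Col5a1 was the only gene of the 42 whose libraries were higher with STZ in both comparisons without overlap, where 1.7% of all genes were.

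**Figure D2:**
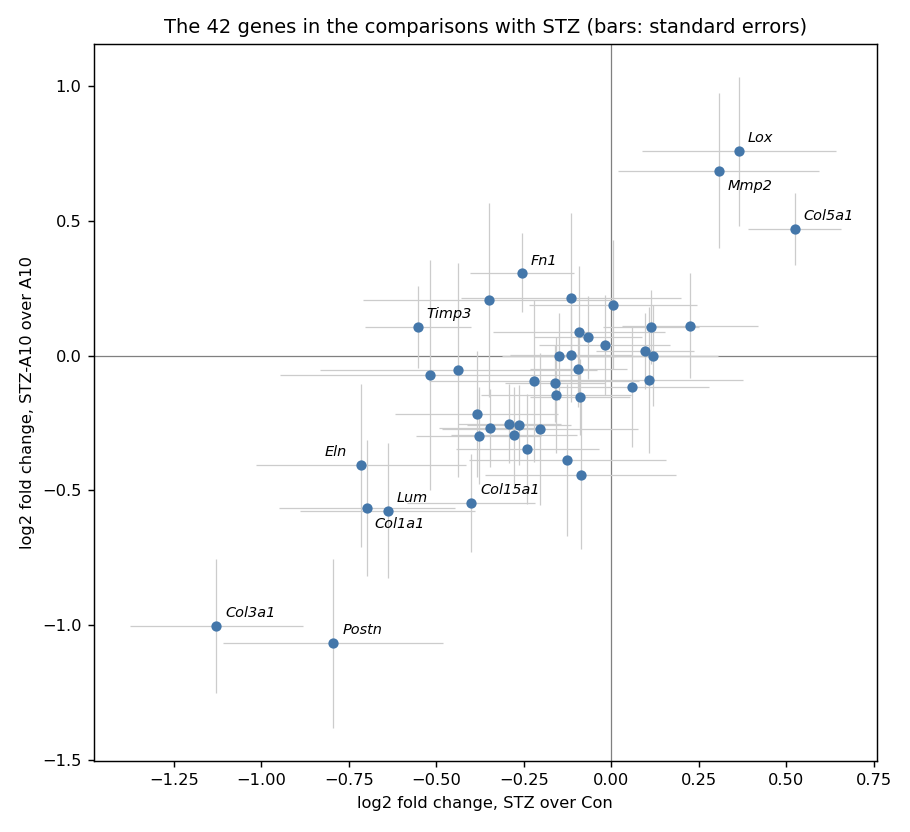
Log2 fold change of each of the 42 genes (points) in STZ over Con (horizontal) and in STZ-A10 over A10 (vertical), with standard errors of the fit as bars. Col3a1 and Postn lie farthest to the lower left and Col5a1, Lox and Mmp2 to the upper right, while most genes lie near the origin.

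To use all 12 libraries of these groups, the mean of both STZ effects was tested in the same fit, a contrast added after the values of both had been seen. It was passed by 3.3% of all genes and by 3 of the 42. Col3a1 and Postn fell, where 1.93% of all genes did, and Col5a1 rose, where 1.37% of all genes did. At an unadjusted p under 0.05 there were 14 of the 42, where 18.2% of all genes were. Col1a1, Col15a1 and Lum followed with adjusted p-values of 0.0652, 0.0577 and 0.0722. Col15a1 reached the filter level in no STZ or STZ-A10 library, and Lum in no STZ and 1 STZ-A10 library. Both were tested through the groups where they were higher, so their p-values lend no support.

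Col3a1 (chromosome 1, 45311538 to 45349706, plus strand of GRCm38) encodes the chain of collagen III. It was 30.95, 38.65 and 32.49 RPKM in Con, and 17.13, 12.36 and 15.77 in STZ. In A10 it was 24.91, 38.07 and 31.89, and in STZ-A10 15.90, 17.00 and 12.62. The highest of the 6 STZ and STZ-A10 libraries, 17.13, was thus below the lowest of the 6 Con and A10 libraries, 24.91. The log2 fold change was -1.13 (SE 0.248, adjusted p 0.0668) in STZ over Con and -1.0 (SE 0.248, adjusted p 0.119) in STZ-A10 over A10. Over both, Col3a1 fell by 1.07 on the log2 scale (SE 0.176, adjusted p 0.00666).

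Col5a1 (chromosome 2, 27886425 to 28039514, plus strand) encodes the main chain of collagen V, which nucleates and narrows collagen fibrils. It went the other way. Its level was 5.65, 5.15 and 4.76 RPKM in Con and 8.03, 7.99 and 7.62 in STZ. It was 4.44, 4.71 and 3.84 in A10 and 6.23, 6 and 6.89 in STZ-A10. Every STZ and STZ-A10 library was above every Con and A10 library, and the STZ libraries were also above the STZ-A10 libraries. The log2 fold change was 0.52 (SE 0.133, adjusted p 0.0920) in STZ over Con, and over both comparisons Col5a1 rose by 0.50 (SE 0.0938, adjusted p 0.0114). Its partner in the collagen V molecule, Col5a2, did not share the direction, with a log2 fold change of -0.29 in STZ over Con that did not pass. Col3a1 and Col5a1 passed the added contrast in 28 of 28 alternative settings.

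**Figure D3:**
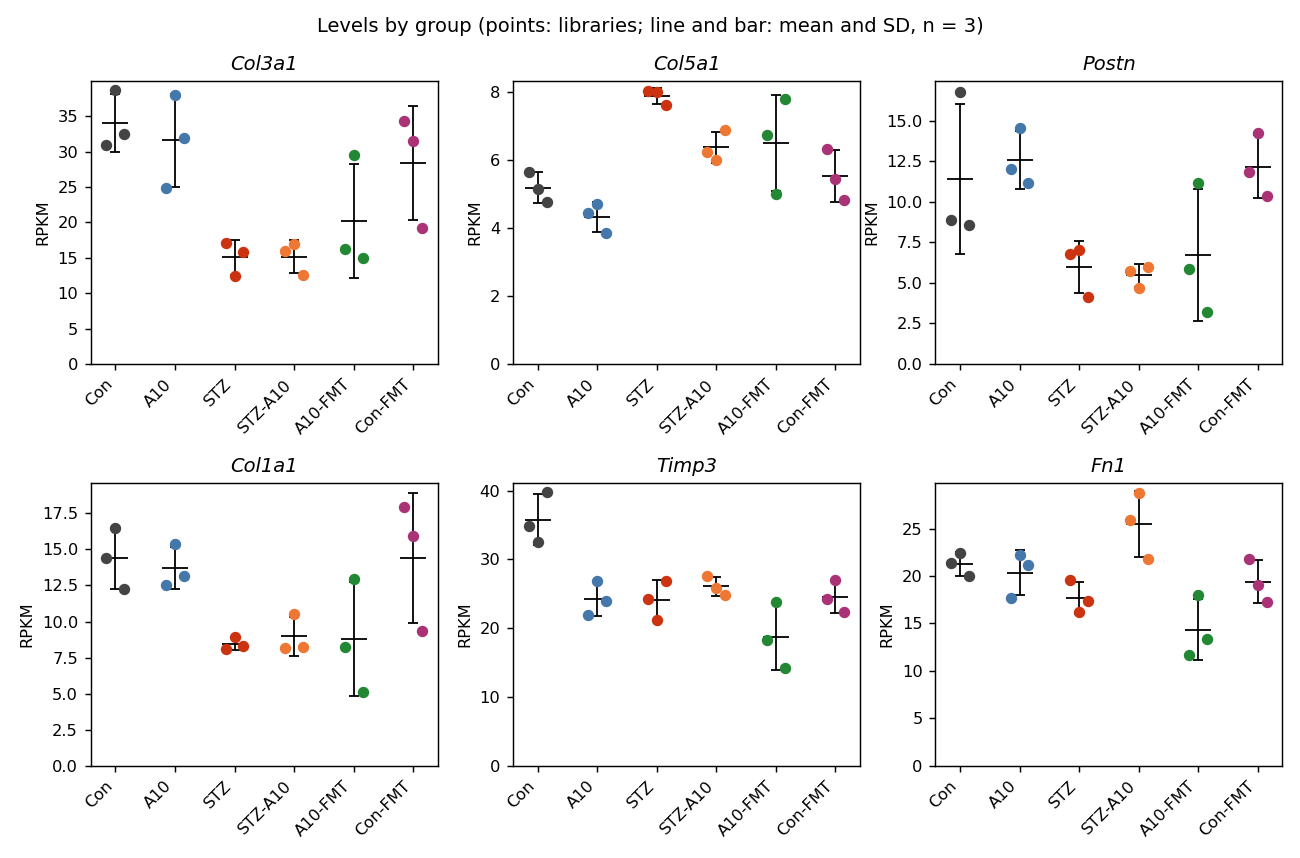
RPKM of 6 genes in each library (points) with the group mean and SD (line and bar, n = 3). Col3a1, Postn and Col1a1 are lower and Col5a1 higher in STZ and STZ-A10 than in Con and A10, Timp3 is highest in the 3 Con libraries, and Fn1 is higher in STZ-A10 than in STZ.

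Because both genes are read in the same library, their ratio does not depend on how a library is scaled. The ratio of Col3a1 to Col5a1 was chosen after the values were seen and is a description without a test. It was 5.48, 7.5 and 6.83 in Con and 5.61, 8.08 and 8.30 in A10. It was 2.13, 1.55 and 2.07 in STZ and 2.55, 2.83 and 1.83 in STZ-A10. The range over STZ and STZ-A10 thus lay wholly below the range over Con and A10. In Con-FMT the ratio was 5.44, 5.80 and 3.99, between the STZ and Con ranges or within the Con range. In A10-FMT it was 2.41, 5.89 and 1.93, with replicates 1 and 3 near STZ and replicate 2 near Con. The ratio of Col4a1 to Col4a2, the head-to-head gene pair whose chains form the collagen IV molecule of basement membranes, spanned 1.22 to 1.63 over all 18 libraries. It was 1.49, 1.5 and 1.63 in Con and 1.22, 1.25 and 1.59 in STZ, which overlap. It was 1.49, 1.48 and 1.5 in A10 and 1.25, 1.29 and 1.41 in STZ-A10, lower there without overlap.

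**Figure D4:**
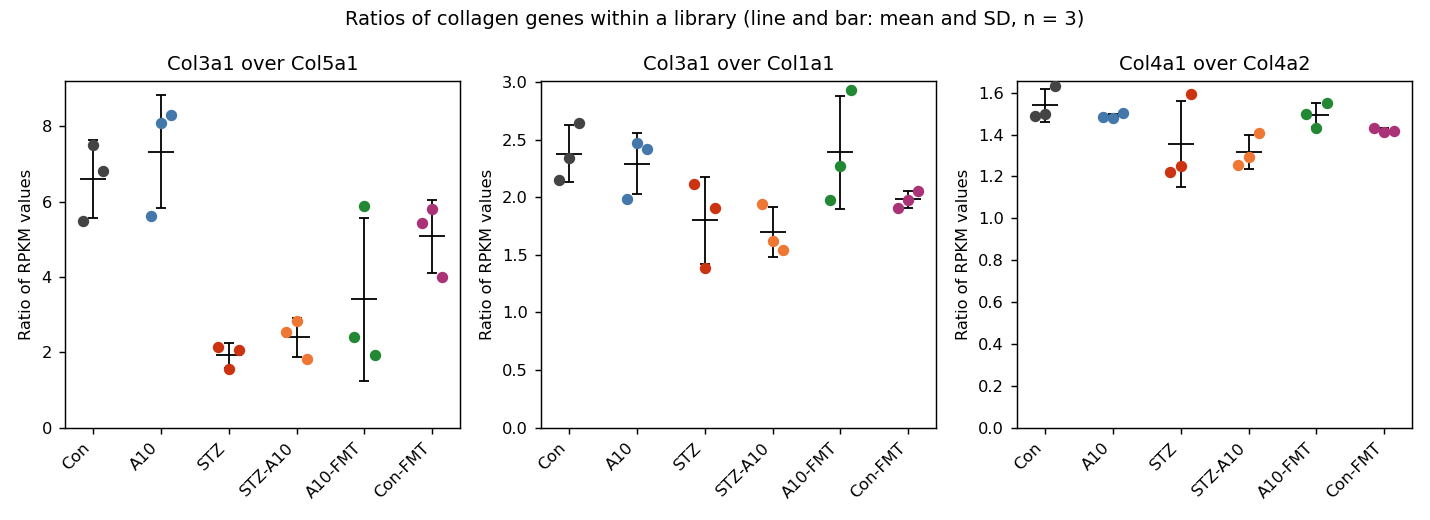
Ratios of RPKM values within each library (points) with group mean and SD (line and bar, n = 3), on axes that start at 0. Col3a1 over Col5a1 is 1.55 to 2.83 in STZ and STZ-A10 and 5.48 to 8.30 in Con and A10, while Col4a1 over Col4a2 lies between 1.22 and 1.63 in all libraries and is lower in STZ-A10 than in A10.

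The upstream sequences of the genes that passed are shown as a description, and any bearing on the direction of change was not tested. Each is the 250 bases before a start given by RefSeq on GRCm38.p6, 5′ to 3′ on the gene's strand, for Col3a1 at chr1:45311288-45311537, for Postn at chr3:54360857-54361106 and for Col5a1 at chr2:27886175-27886424, all on the plus strand. Capitals mark TATAAA and GGGCGG, searched on both strands, the second therefore also as CCGCCC.
Col3a1: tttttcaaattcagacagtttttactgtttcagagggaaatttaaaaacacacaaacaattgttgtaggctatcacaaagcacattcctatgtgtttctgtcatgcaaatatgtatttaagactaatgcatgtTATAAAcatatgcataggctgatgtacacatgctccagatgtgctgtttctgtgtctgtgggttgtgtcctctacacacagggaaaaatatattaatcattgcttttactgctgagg
Postn: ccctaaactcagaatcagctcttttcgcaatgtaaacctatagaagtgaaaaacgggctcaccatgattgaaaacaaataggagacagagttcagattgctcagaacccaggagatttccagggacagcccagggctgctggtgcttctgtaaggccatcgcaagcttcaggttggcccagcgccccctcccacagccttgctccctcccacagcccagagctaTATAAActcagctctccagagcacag
Col5a1: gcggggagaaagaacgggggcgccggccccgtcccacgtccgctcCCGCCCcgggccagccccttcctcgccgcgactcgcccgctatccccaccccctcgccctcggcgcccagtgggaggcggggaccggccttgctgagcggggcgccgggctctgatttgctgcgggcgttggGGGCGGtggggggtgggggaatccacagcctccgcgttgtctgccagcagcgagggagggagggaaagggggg

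The Col3a1 and Postn windows each held 1 TATAAA and no GGGCGG, and the Col5a1 window held 2 GGGCGG and no TATAAA. Over 32851 windows of this length, 12.4% held TATAAA and 32.7% held GGGCGG. The G and C content was 35.2% in Col3a1, 52% in Postn and 76.4% in Col5a1, where the median over all windows was 52.4% and the 5th and 95th percentiles were 34.8% and 73.6%. RefSeq gives Postn a further upstream start, whose window held neither motif. A match is a description and not a site. Of the 42 genes 27 had a window, and of these 4 held TATAAA and 15 held GGGCGG. The genes with GGGCGG include some below 0 in STZ over Con, such as Col1a2, Lamb1 and Timp3. They also include some above 0, such as Col5a1 and Des.

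Among the matrix glycoproteins, Postn (chromosome 3, 54361109 to 54391037, plus strand), periostin, which links collagen to other matrix proteins, was 8.85, 16.75 and 8.60 RPKM in Con and 6.81, 7.01 and 4.14 in STZ. It was 12, 14.57 and 11.16 in A10 and 5.73, 4.67 and 6.01 in STZ-A10. The groups did not overlap in either comparison, although Con replicate 2 stood well above the other Con libraries. The log2 fold change was -0.79 (SE 0.314, adjusted p 0.326) in STZ over Con, or -0.51 without Con replicate 2, and -1.07 (SE 0.314, adjusted p 0.189) in STZ-A10 over A10. Over both, Postn fell by 0.93 on the log2 scale (SE 0.222, adjusted p 0.0357), a call that held in 15 of 28 alternative settings. It was lost with no filter and on leaving out any A10, STZ or STZ-A10 library, Con replicate 2, or Con-FMT replicate 1 or 2, with adjusted p-values of up to 0.0922. Of the other genes of the class, Eln, the elastin of elastic fibres, had a log2 fold change of -0.72 in STZ over Con, and all 6 were below 0, against 52.4% of all genes, without passing the test. In STZ-A10 over A10 5 of the 6 were below 0, and Fn1, fibronectin, was above it at 0.31 (SE 0.147, adjusted p 0.4998).

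Of the fibrillar collagens, Col1a1, the main chain of collagen I, was 14.39, 16.51 and 12.29 RPKM in Con and 8.10, 8.94 and 8.27 in STZ. It was 12.55, 15.38 and 13.19 in A10 and 8.18, 10.51 and 8.20 in STZ-A10. The groups did not overlap in either comparison, and the log2 fold changes were -0.70 (adjusted p 0.267) and -0.57 (adjusted p 0.451). Col1a2, the other chain of the same molecule, was -0.24 in STZ over Con, with overlapping libraries. The summed level of the 5 fibrillar collagen genes was 87.25 to 107.59 RPKM in Con and 63.86 to 71.13 in STZ, and 82.78 to 105.95 in A10 and 57.37 to 71.40 in STZ-A10, again without overlap.

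The basement membrane class was close to even. Of its 11 genes 7 were below 0 and 4 above in STZ over Con, with a median of -0.07. Its summed level lay between 67.12 and 100.22 RPKM in Con, 73.36 and 88.84 in A10, 73.15 and 85.30 in STZ, and 74.11 and 88.61 in STZ-A10, ranges that overlap. Col15a1, which lies at the border of basement membranes and interstitial collagen, was lower without overlap in both comparisons. It was 0.64, 1.08 and 0.83 RPKM in Con and 0.36, 0.33 and 0.50 in STZ, and 0.75, 1.73 and 1.05 in A10 and 0.64, 0.37 and 0.40 in STZ-A10. These values are near the lower end of the scale, and those of STZ and STZ-A10 were all under the filter level. Lamb1 was 0.96, 1.38 and 1.35 RPKM in Con and 0.72, 0.68 and 0.84 in STZ, without overlap, at -0.35 (SE 0.146, adjusted p 0.369), and its libraries overlapped between A10 and STZ-A10.

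The small leucine-rich proteoglycans, which bind collagen fibrils and space them, were all below 0 in STZ over Con, with a median of -0.44, and none passed. In STZ-A10 over A10 their median was -0.07. Lum (lumican) had the largest difference among them in both comparisons, at -0.64 and -0.58. It reached the filter level in no STZ library and in 1 STZ-A10 library, so its values there are near the lower end of the scale. Dcn (decorin) ran from 29.40 to 65.53 RPKM within STZ and from 57.83 to 126.74 within STZ-A10, a spread wider than the group differences.

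The genes of matrix turnover and crosslinking were split. All 6 were above 0 in STZ-A10 over A10, where 42.5% of all genes were, and 3 of 6 in STZ over Con. Lox, the lysyl oxidase that crosslinks collagen and elastin, was 1.32, 1.95 and 1.31 RPKM in A10 and 4.03, 2.01 and 4.05 in STZ-A10, with STZ-A10 over A10 at 0.76 on the log2 scale (SE 0.276, adjusted p 0.320). Mmp2, a metalloproteinase that cuts denatured collagen and collagen IV, was 5.60, 7.56 and 6.76 in A10 and 16.98, 10.51 and 7.82 in STZ-A10, which was 0.69 on that scale (SE 0.287, adjusted p 0.409) and 0.41 without STZ-A10 replicate 1. Neither overlapped in that comparison, and both overlapped between STZ and Con, where Lox was 0.36 and Mmp2 was 0.31.

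None of the 5 contractile genes passed in STZ over Con or in STZ-A10 over A10. Acta2, the smooth muscle actin, was 49.54, 72.49 and 51.63 RPKM in Con and 59.37, 71.43 and 33.40 in STZ. Tagln was 86.48, 93.19 and 84.99 in Con and 93.85, 118.46 and 69.51 in STZ. STZ replicate 3 was the lowest of the 6 libraries for both genes, and STZ replicate 2 was the highest for Tagln and next to the highest for Acta2, so the groups overlapped. The log2 fold changes of the 5 contractile genes in STZ over Con ran between -0.20 for Myh11, the smooth muscle myosin heavy chain, and 0.11 for the intermediate filament gene Des (desmin). In STZ-A10 over STZ all 5 were below 0, where 41.3% of all genes were, with a median of -0.48, and none passed. Reads of Acta2 may be shared with other actin genes, whose coding sequences are nearly identical.

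**Figure D5:**
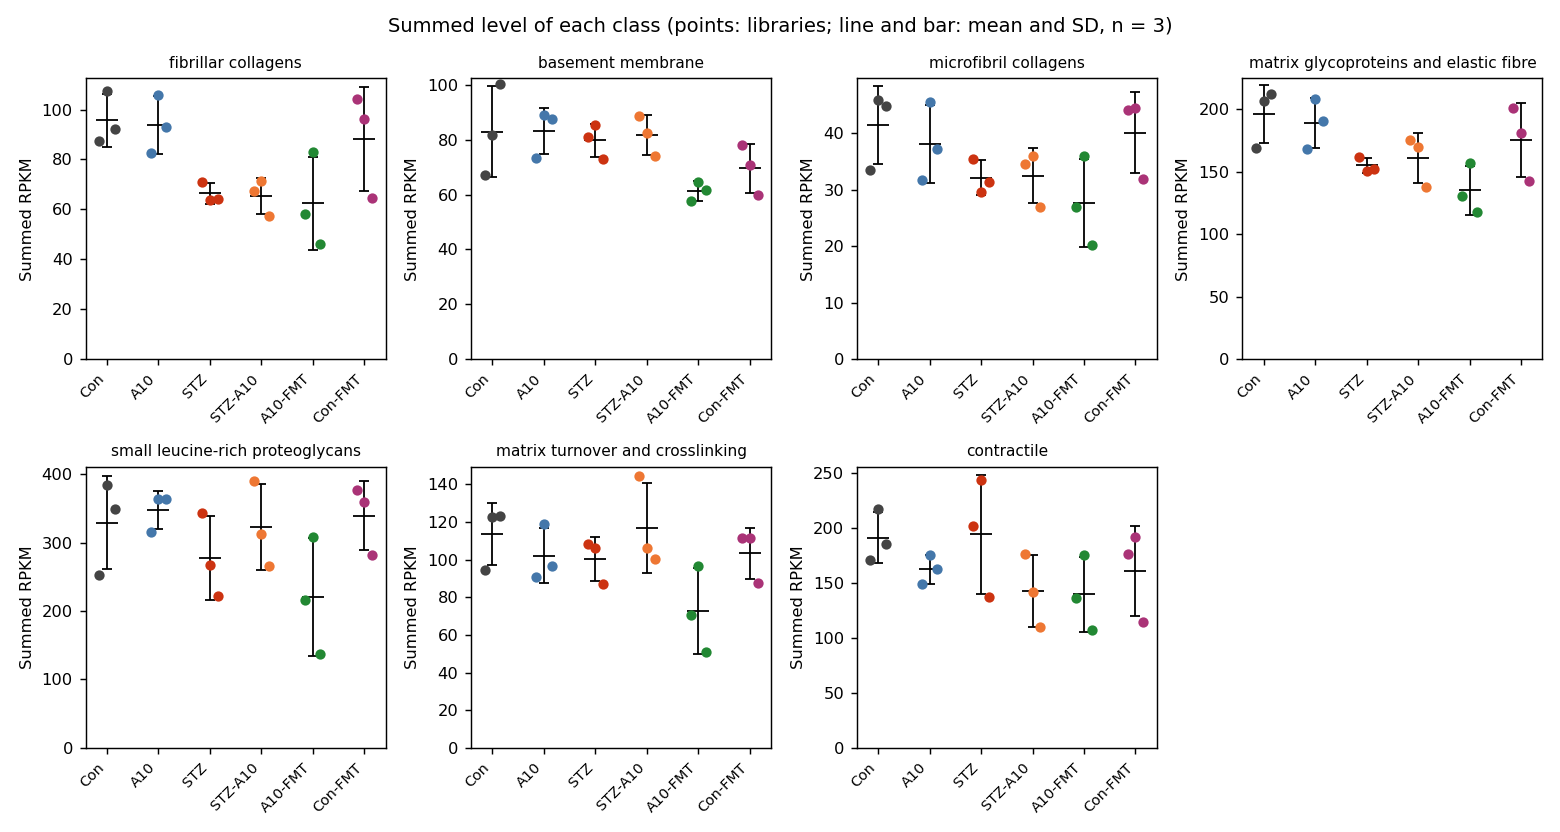
Summed RPKM of the genes of each class in each library (points), with group mean and SD (line and bar, n = 3), on axes that start at 0. The fibrillar collagens do not overlap between Con (87.25 to 107.59) and STZ (63.86 to 71.13), while the basement membrane and contractile sums overlap between these groups.

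Some marker transcripts of neighbouring tissues and of the spleen's own cells moved with STZ beside these genes, and their part in the results was not tested. The counts of markers that fell or rose are those past the threshold in the added contrast. Of all genes 1.93% fell and 1.37% rose there. The adipocyte markers all fell in the added contrast (7 of 7 tested), with summed levels between 46.23 and 268.17 RPKM in Con, 140.55 and 438.43 in A10, 11.55 and 30.30 in STZ, and 33.48 and 106.98 in STZ-A10. Lep, which did not pass the filter, was listed at 0 in every STZ, STZ-A10 and A10-FMT library. It was at most 0.04 RPKM in Con-FMT and 0.11 to 0.63 in Con and A10. Exocrine pancreas markers rose for 6 of 17, with sums between 26.14 and 2437.07 in Con, 55.95 and 946.02 in A10, 1618.44 and 7367.68 in STZ, and 7501.95 and 11719.7 in STZ-A10.

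Hepatocyte markers fell for 8 of 10, with sums between 22.74 and 265.47 RPKM in Con, 17.19 and 85.66 in A10, 6.71 and 8.84 in STZ, and 6.13 and 16.68 in STZ-A10. Platelet and megakaryocyte markers fell for 5 of 10, with sums between 808.98 and 2033.66 in Con, 711.84 and 1102.31 in A10, 233.06 and 705.03 in STZ, and 443.61 and 722.47 in STZ-A10. Macrophage markers rose for 1 of 10, with sums between 548.06 and 666.62 in Con, 650.93 and 778.15 in A10, 747.21 and 889.09 in STZ, and 669.93 and 1167.16 in STZ-A10. Of 12 reticular cell and fibroblast markers 1 rose and none fell, with sums between 519.87 and 861.16 in Con, 769.63 and 855.39 in A10, 653.61 and 874.58 in STZ, and 618.35 and 928.45 in STZ-A10. The marker that rose was Pdgfra, a growth factor receptor of fibroblasts, at 3.97, 5.55 and 5.26 RPKM in Con and 11.59, 12.54 and 5.60 in STZ. In STZ-A10 against A10, 3 of the 12 (Ccl19, Cxcl13 and Thy1) were lower without overlap, where 14.9% of all genes were. In that comparison 7 of the 12 were higher without overlap, where 7.69% of all genes were. In STZ against Con 1 (Pdpn) was lower and 1 (Pdgfra) higher without overlap, where 7.07% and 5.77% of all genes were. Of 9 mesothelium markers only Wt1 rose, by 0.86 on the log2 scale, and none fell. The summed level of the 9 overlapped in both comparisons. For Con it spanned 22.75 to 65.92 RPKM, against 22.5 to 37.41 for STZ. The span for A10 was 27.99 to 51.65, against 36.43 to 66.05 for STZ-A10. A rise of Wt1 is thus not a rise of the list as a whole.

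The effect of AOS was read in healthy and in diabetic animals. In A10 against Con none of the 42 genes passed in limma, where 0.00775% of all genes did. At an unadjusted p under 0.05 there was 1 of the 42, where 5.25% of all genes were. That gene was Timp3 (chromosome 10, 86300372 to 86349506, plus strand), a matrix-bound inhibitor of metalloproteinases. It was 34.90, 32.55 and 39.87 RPKM in Con and 21.96, 26.94 and 23.90 in A10, and every library outside Con was at or below 27.60. The log2 fold change was -0.54 (SE 0.152, adjusted p 0.460) in A10 over Con and -0.55 (SE 0.152, adjusted p 0.122) in STZ over Con. Both comparisons share the Con libraries, so a high Con group enters both. Exons of Timp3 overlap those annotated for Syn3, in whose locus it lies, and reads there could be counted for either gene. Tagln and Col5a1 were the other genes of the 42 that were lower without overlap in A10, 3 in all, where 4.81% of all genes were.

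In STZ-A10 against STZ none of the 42 genes passed, where 0.00775% of all genes did, and 3 had an unadjusted p under 0.05, where 2.93% of all genes had. Libraries without overlap were lower for 3 genes, where 4.71% of all genes were, and higher for 2, where 3.29% were. Among these Tnc was lower and Lum higher, and neither reached the filter level in any STZ library. Fn1, the glycoprotein that guides collagen assembly, was 19.54, 16.19 and 17.35 RPKM in STZ and 25.93, 28.72 and 21.83 in STZ-A10. The STZ-A10 libraries were all above the STZ libraries, at 0.50 on the log2 scale (SE 0.147, adjusted p 0.996). In A10 against Con, Fn1 was -0.06. The difference between the effects of AOS with and without STZ, tested as an interaction, passed for none of the 42 genes and none of all genes. It had an unadjusted p under 0.05 for 2 of the 42, where 2.86% of all genes had, which were Fn1 at 0.56 (SE 0.208) and Timp3 at 0.66 (SE 0.214), both with an adjusted p of 1.00.

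The transplant groups were compared with STZ and with each other. The comparisons against STZ share the STZ libraries with STZ against Con, so low values in STZ enter each of them. In Con-FMT against STZ none of the 42 genes passed, where 0.00775% of all genes did, and 8 had an unadjusted p under 0.05, where 5.24% of all genes had. Of these 6 were higher, where 2.66% of all genes were, and 2 lower, where 2.58% were. Col3a1 was 34.35, 31.52 and 19.21 RPKM in Con-FMT, all above the STZ libraries and with replicate 3 well below the others. The log2 fold change over STZ was 0.84 (SE 0.248, adjusted p 0.798). Col5a1 was 6.32, 5.43 and 4.81, all below the STZ libraries, at -0.45 (SE 0.133, adjusted p 0.798). Postn was 11.86, 14.24 and 10.38, all above STZ, at 0.93 (SE 0.314, adjusted p 0.867), and Col1a1 and Lum were higher without overlap as well. In all 6 genes were higher without overlap, where 6.94% of all genes were, and 1 was lower, where 6.22% were. Among the higher genes, Lum, Lamb1 and Tnc reached the filter level in no STZ library and lend that count no support. Con-FMT replicate 3 was the lowest of its group for 40 of the 42 genes. Adipocyte marker sums were 23.96 to 181.33 RPKM in Con-FMT and 11.55 to 30.30 in STZ, hepatocyte sums 10.89 to 43.46 and 6.71 to 8.84, and exocrine pancreas sums 2253.24 to 3799.05 and 1618.44 to 7367.68, and the part of these transcripts in the result was not tested.

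In A10-FMT against STZ none of the 42 genes passed, where 0.00775% of all genes did. At an unadjusted p under 0.05 there were 13, where 17.2% of all genes were. All 13 were lower, where 15.2% of all genes were, and 38 of 42 were below 0, where 72.3% of all genes were. The median of all genes was itself -0.15 in this comparison, and the median of the 42 genes was -0.29. After each library was centred on its median, 29 of the 42 were below 0, with a median of -0.12. Col4a2, a chain of collagen IV, was 16.50, 18.34 and 14.21 RPKM in STZ and 10.96, 11.77 and 13.55 in A10-FMT, with -0.40 on the log2 scale for A10-FMT over STZ (SE 0.140, adjusted p 0.243). Col18a1, a vascular basement membrane collagen, was 6.73, 6.77 and 5.88 in STZ and 4.76, 5.53 and 4.57 in A10-FMT, at -0.33 (SE 0.138, adjusted p 0.270). Neither overlapped between the groups, and 7 genes were lower without overlap, where 12.1% of all genes were. Among the 7 was Tnc, which reached the filter level in no library of either group. Col3a1 in A10-FMT was 16.21, 29.46 and 14.98 RPKM, spanning the STZ and Con ranges. Without A10-FMT replicate 3 there were 3 genes at an unadjusted p under 0.05, where 7.93% of all genes were, and 31 of 42 below 0. The median was then -0.20, against -0.07 over all genes, Col4a2 was -0.48 and Col18a1 -0.28. Libraries without overlap were then lower for 9 genes, where 17.8% of all genes were. Hepatocyte marker sums were 99.49 to 371.27 RPKM in A10-FMT against 6.71 to 8.84 in STZ, adipocyte sums 51.40 to 135.26 against 11.55 to 30.30, and exocrine pancreas sums 216.15 to 27383.3 against 1618.44 to 7367.68, and their part in the result was not tested.

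A10-FMT was compared with Con-FMT to ask whether the donor treatment mattered. None of the 42 genes passed, where 0% of all genes did. At an unadjusted p under 0.05 there were 15, where 23.6% of all genes were. All 15 were lower in A10-FMT, where 20.1% of all genes were, and 40 of 42 were below 0, where 71% of all genes were. The median was -0.38, against -0.17 over all genes, and 32 of 42 were below 0 after centring. Bgn was 264.42, 251.93 and 215.84 RPKM in Con-FMT and 173.45, 204.24 and 101.97 in A10-FMT, at -0.66 on the log2 scale (SE 0.214, adjusted p 0.204). These libraries did not overlap, as for 4 genes in all, where 23.9% of all genes were lower in this way. Tnc was 0.91, 1.18 and 0.51 in Con-FMT and 0.42, 0.47 and 0.21 in A10-FMT, at -0.44 (SE 0.180, adjusted p 0.204). It reached the filter level in 1 Con-FMT library and no A10-FMT library, so it lends the count of 4 no support. A10-FMT replicates 2 and 3 lay at opposite ends of their group for most of the 42 genes, replicate 2 the highest for 36 and replicate 3 the lowest for 32. Without replicate 3 none passed, 1 had an unadjusted p under 0.05, where 3.64% of all genes had, and the median was -0.25, against -0.09 over all genes. Bgn was then -0.37 and Tnc -0.35. Without replicate 2, 15 of the 42 passed, where 20.3% of all genes did, and the largest was Postn at -1.29 (adjusted p 0.0351). Beside these genes, the summed reticular cell and fibroblast markers were 617.5 to 663.93 RPKM in Con-FMT and 561.07, 625.64 and 226.5 in A10-FMT replicates 1 to 3. The lymphocyte sums were 2097.28 to 2228.85 in Con-FMT and 560.54 to 1932.21 in A10-FMT, the hepatocyte sums were 10.89 to 43.46 in Con-FMT and 99.49 to 371.27 in A10-FMT, and the exocrine pancreas sum reached 27383.3 in A10-FMT replicate 2. The part of these transcripts in the result was not tested.

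The other genes of the matrix pathway, written as lists from general knowledge, were tested in the same fits. None of 18 genes of the transforming growth factor beta pathway, which drives collagen synthesis, passed in any comparison, and none of 16 genes of collagen processing, which hydroxylate, fold and trim the chains, passed either. In the added contrast the medians of these lists were -0.08 and -0.10, against -0.02 over all genes. Of 21 matrix receptors 2 passed there, where 3.3% of all genes did. The fibronectin receptor chain Itga5 rose by 0.31 (SE 0.0723, adjusted p 0.0346), and the laminin receptor chain Itga6 fell by 0.49 on the log2 scale (SE 0.127, adjusted p 0.0484). Of 13 matrix proteases none passed. Of 13 other contractile and capsule genes Myl9, a light chain of smooth muscle myosin that platelets also express, fell by 0.78 (SE 0.199, adjusted p 0.0471). The 17 genes of this list summed to 545.99 to 674.95 RPKM in Con and 423.74 to 469.72 in STZ. In A10 the sum was 462.37 to 539.61 and in STZ-A10 362.71 to 457.58, without overlap in either comparison. The median of the 13 tested was -0.31 in STZ over Con and -0.07 in STZ-A10 over A10. Myl9, Tpm1 and Flna weighed most in the sum. It was highest in Con replicate 1, as was the platelet and megakaryocyte sum at 2033.66, and the part of platelets was not tested. Not all genes of the list shared the fall. Mylk was 18.11, 20.84 and 20.08 RPKM in Con and 18.68, 20.40 and 15.94 in STZ, which overlap, as did Tpm1 and Actg2. Tpm2, Cald1 and Smtn were lower in STZ without overlap. Myl9 was 179.82, 139.08 and 86.68 RPKM in Con and 66.31, 71.61 and 69.88 in STZ.

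A test for any difference among the 6 groups was passed by none of the 42 genes, where 0.449% of all genes passed, and 15 had an unadjusted p under 0.05, where 22.6% of all genes had. The smallest adjusted p-value was 0.0668 for Col3a1, followed by 0.0761 for Timp3, 0.0771 for Col5a1 and 0.0886 for Fn1. Several of the genes named share annotated exon bases with another gene, and the strand was not stated to be used in counting. These are Fn1, Col15a1, Eln, Lox, Tagln, Des and Col4a2 with an antisense gene, Col5a1 and Tnc with processed transcripts, Col3a1 with a microRNA, Tagln also with Pcsk7, Timp3 with Syn3 and Col4a1 with Col4a2, so their reads may include the neighbour's.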

How the data were processed

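Poly(A) RNA of 18 spleen samples was read by Illumina HiSeq sequencing. The deposited values are RPKM, which the authors computed after alignment with SOAPaligner; the submitters' processing notes name Bowtie 0.12.2 and mm10. Of 19326 lines, 6 with repeated names were left out, and 0 columns were left unassigned. No counts were used, so depth and counting intervals are unknown. Values were analysed as log2(RPKM + 1) with limma 3.58.1 (trend) in R 4.3.3. The filter was an RPKM of at least 1 in at least 3 libraries, which left 12905 genes. All 18 libraries entered a single fit of group means without covariates. P-values were two-sided and adjusted by the Benjamini-Hochberg method over all genes tested, with a threshold of 0.05. They measure the spread between libraries, each labelled as a separate sample. The members and lists were chosen with earlier results of these data known.

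Values in every library were given for genes past the threshold. For each comparison the rule named the 2 genes with the largest log2 fold change in each direction among those without overlap, and the highest gene of each class. Col1a1, Col15a1, Eln, Dcn, Acta2, Des, Myh11, Lamb1 and Col5a2 were named after their values had been seen, as were the ratios. Positions are from GENCODE M21 (GRCm38) and upstream windows from RefSeq. Alternatives were quantile normalization, centring on library medians, rescaling without globin genes, no filter, the same minimum required of all libraries, a pseudocount of 0.1, no trend, fits restricted to the groups compared, a block for the replicate number, array weights, and leaving out each library.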

Additional observations from a re-analysis of the deposited data

How the results depend on the processing

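The median over the 42 genes kept its sign in 243 of 252 recomputed values. The 9 changes arose on leaving out 1 library of a compared group where the median was near 0. All 252 moved by less than the SD between replicates. That SD, of the median level of the 42 genes over the libraries of a group, is wide beside most of these medians. Staying within it therefore does not show that they were stable. In A10-FMT against Con-FMT the median ran from -0.503 to -0.253 on leaving out libraries and was -0.203 after centring. Of 748 recomputed values of single genes 702 kept their side of the threshold, 33 passed it newly, 13 lost it and 0 reversed. The count of genes past the threshold was 0 in all 8 planned pairwise and interaction comparisons and in the test over 6 groups. Leaving out libraries moved it to between 0 and 3 in STZ against Con (3 without A10-FMT replicate 3, which were Col3a1, Col5a1 and Timp3, and 1 without A10-FMT replicate 2), between 0 and 15 in A10-FMT against Con-FMT and between 0 and 7 in the test over 6 groups (15 and 7 without A10-FMT replicate 2), and between 2 and 5 in the added contrast (5 without A10-FMT replicate 2 or 3). In the other comparisons it stayed at 0. Fitting only the compared groups gave 1 gene in STZ-A10 against A10 (Postn, adjusted p 0.0283). In the test over 6 groups, centring gave 1 (Col3a1) and rescaling without globin genes, an alternative added after the data were seen, gave 2 (Col3a1 and Timp3). With array weights the counts were 30 in STZ against Con, 19 in A10 against Con, 8 in STZ-A10 against STZ, 7 in STZ-A10 against A10, 29 in A10-FMT against STZ, 22 in Con-FMT against STZ, 39 in A10-FMT against Con-FMT, 8 in the interaction, 41 in the test over 6 groups and 24 in the added contrast, but the weights ran from 0.0462 to 424 and their estimation did not converge. The cause of these moves was not tested. The replicate block gave 0 genes in every planned comparison and 4 in the added contrast. Of 45 same-numbered pairs of libraries 14 deviated together with r over 0.1, in a range of -0.385 to 0.571. The highest was STZ with STZ-A10 for replicate 1, and that pair of groups had 0.429 for replicate 3 and 0.0441 for replicate 2. Differently numbered pairs were not examined, so these values cannot tell whether replicate numbers pair the libraries. Over all genes, and leaving array weights aside, the count of 21 in STZ against Con ran from 0 to 234, that of 7 in STZ-A10 against A10 from 1 to 61, that of 1 in each of A10 against Con, STZ-A10 against STZ, A10-FMT against STZ and Con-FMT against STZ from 0 to 23, 6, 87 and 6, that of 0 in A10-FMT against Con-FMT to 2625 (without A10-FMT replicate 2), that of 58 in the test over 6 groups from 4 to 814 and that of 426 in the added contrast from 122 to 986, while array weights gave 1969 to 12624. With 3 libraries a group, unknown depth and members as low as 0.597 RPKM, a p that misses the threshold does not show that levels were equal.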
